A study of Mus musculus with 14 samples.

Results

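Translation initiation factors are the proteins that bring the ribosome, the initiator tRNA and an mRNA together at the start codon. All non-control probes whose gene name on the array begins with Eif and a digit from 1 to 6 were taken, except those of one kinase that is not analysed here. This gave 54 initiation factor genes with 82 probes, and the 3 eIF2 kinase genes Eif2ak1, Eif2ak3 and Eif2ak4 with 1 probe each were kept separate. Together these are 57 of the 36406 gene names and 85 of the 55681 probes on the array. Membership followed from this name rule, which was chosen with earlier results of these data known. The name rule also takes in 4 Argonaute genes under their older names Eif2c1 to Eif2c4, now Ago1 to Ago4, which act in microRNA silencing and not in initiation, so 50 of the 54 remain without them.

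The samples were satellite cells, the stem cells of skeletal muscle, sorted from dissociated mouse muscle as carrying integrin α7 and CD34 but lacking the endothelial marker CD31, the leukocyte markers CD45 and CD11b, and Sca1. The Young (2, 2 and 3 months, n = 3), Old (22, 23 and 24 months, n = 3) and Geriatric (30 and 29 months, n = 2) mice were C57BL/6. The SAMR1 (n = 3) and SAMP8 (n = 3) mice were 12 months old, SAMP8 being a strain bred for accelerated senescence and SAMR1 its senescence-resistant counterpart. The labels name no treatment or engineered allele, and the 14 samples are described as biological replicates. RNA was amplified before labelling, and each sample was read on one single-colour Agilent array.

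In initiation, the eIF4F complex (cap-binding eIF4E, scaffold eIF4G and helicase eIF4A) recruits an mRNA by its cap, while eIF2 carries the initiator tRNA in a GTP-bound complex and eIF3 holds the small ribosomal subunit ready. eIF1, eIF1A and eIF5 set the accuracy of start codon choice, eIF2B recharges eIF2 with GTP, and eIF5B joins the large subunit. Translation is lowered by eIF2 kinases, which phosphorylate the α subunit of eIF2 and so block eIF2B, and by the 4E-BPs, which hold eIF4E away from eIF4G until mTORC1 phosphorylates them. Quiescent satellite cells are known to keep translation low through phosphorylated eIF2α, and the arrays measure mRNA, not phosphorylation or translation.

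Values are log2 signals relative to the array's own 75th percentile, so a value of 0 is that percentile itself, and levels are set only against the same probe on other arrays. A gene with several probes is represented by the brightest of those kept. A change was called when limma's moderated test over all 14 arrays gave a Benjamini-Hochberg adjusted p under 0.05 across the 32873 genes tested. All 82 initiation factor probes and the 3 kinase probes passed the filter on dim probes. Every representative probe was well above background on all 14 arrays, except that of Eif2ak4, which was so on 0 of 3 Young and 1 of 3 Old arrays, and that of Eif5b, which was not on 2 SAMP8 arrays. Between 77.1% and 88.8% of probes were well above background per array. Arrays of one group correlated at 0.945 to 0.976 over genes. All mice are labelled male, yet Xist, the transcript of the inactive X chromosome, read 5.08 to 5.86 on the Young and Old arrays and -8.15 to -3.52 on the other 8. The Y-linked Ddx3y read -7.69 to -7.36 on the Young and Old arrays against -0.55 to 0.56 on the others, so the labels and these transcripts disagree for the Young and Old groups. In Geriatric against Young or Old, age and this difference cannot be told apart.

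Across the 54 initiation factor genes, the median level per array was 1.71 to 1.79 in Young, 1.23 to 1.72 in Old, 1.43 and 1.62 in Geriatric, 1.2 to 1.24 in SAMR1 and 1.11 to 1.31 in SAMP8. The SAMR1 and SAMP8 arrays were below the Young and the Geriatric arrays. The Old arrays spread from the SAMR1 range up into the Young range, with Old 1 lowest and Old 3 highest. By the median of 9 endothelial markers the SAMR1 and SAMP8 arrays lay apart from all Young, Old and Geriatric arrays. This median was 1.77 to 2.38 in SAMR1 and 0.07 to 2.49 in SAMP8. It was -3.0 to -0.98 in Young, -1.68 to -0.34 in Old and -2.63 and -0.38 in Geriatric. By the summed signal of these markers on the log2 scale SAMP8 3, at 4.16, did not lie above the Geriatric arrays (4.17 and 4.20). The part of the endothelial markers in the members' levels was not tested. Over the 17098 tested genes whose names are current RefSeq symbols, the median lay lowest in Young (-1.26 to -1.23) and highest in SAMR1 (-1.13 to -1.09), so the members' order was not that of genes at large on this scale. Young had the highest group mean for 22 of the 54 genes, Geriatric for 12 and Old for 11, while SAMR1 had the lowest for 17, Old for 15 and SAMP8 for 13. The range between a gene's highest and lowest group mean had a median of 0.61 log2 units over the 54 genes, against 1.02 over all genes tested.

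**Figure D1:**
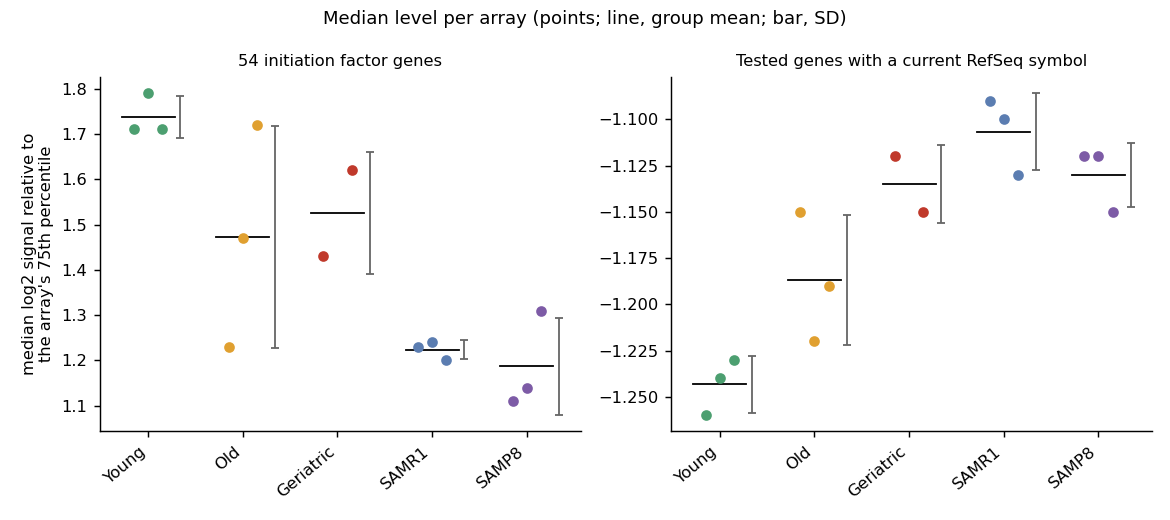
Median log2 signal relative to the array's 75th percentile (vertical axis) on each array by group, for the 54 initiation factor genes (left) and for tested genes with a current RefSeq symbol (right). Points are arrays, lines group means and bars SDs; the 3 Young arrays (1.71 to 1.79) lie above all SAMR1 and SAMP8 arrays (1.11 to 1.31) on the left, and lowest on the right.

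Between Old and Young satellite cells no initiation factor gene passed the threshold, where 1.44% of all genes did. At an unadjusted p under 0.05 there were 6 of 54 genes, against 16.9% of all genes. The differences leaned downward, with 37 of 54 genes below 0 (68.5%) against 44.6% of all genes, and a median of -0.21 against 0.06. Among the genes with a current symbol 50.6% lay below 0, at a median of -0.01. Under the other scalings 38 to 49 of the 54 lay below 0 (70.4% to 90.7%), where 52.1% to 61.4% of all genes did. With any one array left out the members' count was 35 to 44. The arrays did not overlap for 10 genes (18.5%), against 21.5% of all genes. In 9 of them Old was lower, where this held for 8.56% of all genes, and 12.9% were higher.

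Geriatric satellite cells differed from Young in 1 initiation factor gene, Eif4e3, which rose, where 4.19% of all genes passed (1.58% higher, 2.61% lower). A total of 10 of 54 genes had an unadjusted p under 0.05, against 21.9% of all genes. Changes below 0 were seen for 35 genes (64.8%) against 60.8% of all genes, and the median was -0.13 against -0.18. This direction was not held by other scalings, since 27 of 54 genes lay below 0 after normexp and quantile normalization and 28 after quantile normalization of processed signals. The arrays did not overlap for 26 genes (48.1%), 16 lower and 10 higher in Geriatric, against 44.2% of all genes (29.1% lower, 15.1% higher).

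Against Old, Geriatric cells had 2 called initiation factor genes, the Argonaute gene Eif2c3, which rose, and Eif4e1b, which fell. That is 3.70% of the 54, where 19.9% of all genes passed (5.52% higher, 14.4% lower). At an unadjusted p under 0.05 there were 11 of 54 genes, against 35.8% of all genes. The differences leaned upward, with 33 of 54 genes above 0 against 40.2% of all genes and a median of 0.14 against -0.22. Among the genes with a current symbol 48.6% lay above 0, at a median of -0.03. Other scalings put 36 to 43 of the 54 above 0 (66.7% to 79.6%), where they put 49.1% to 52.7% of all genes above 0. The median without Old 1 was 0.02, and the arrays did not overlap for 26 genes (48.1%), against 54.9% of all genes. Geriatric was higher in 16 of these, where 19.5% of all genes were, and lower in 10, where 35.4% were. The Geriatric comparisons with Young and with Old share the 2 Geriatric arrays, both of which were on slide 2. Slide 2 also held 1 of the 3 Young arrays and 2 of the 3 Old arrays, and with the slide as a block no initiation factor gene passed in Geriatric against Young.

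Between SAMP8 and SAMR1 no initiation factor gene passed the threshold, where 0.45% of all genes did. At an unadjusted p under 0.05 there were 3 of 54 genes (Eif2b1, Eif2c3 and Eif4g2), against 8.33% of all genes. The median was 0.03 against 0.01 for all genes, with 25 genes below 0. The arrays did not overlap for 7 genes (13%), against 13.1% of all genes. SAMP8 was higher in 3 of these, against 7.75% of all genes, and lower in 4, against 5.36%. The test of the difference between the Geriatric-Young and the SAMP8-SAMR1 change called none of the 54 genes, where 1.73% of all genes passed, and 9 of them had an unadjusted p under 0.05, against 16.3% of all genes. The smallest adjusted p in that test was 0.0901, for Eif2c3.

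**Figure D2:**
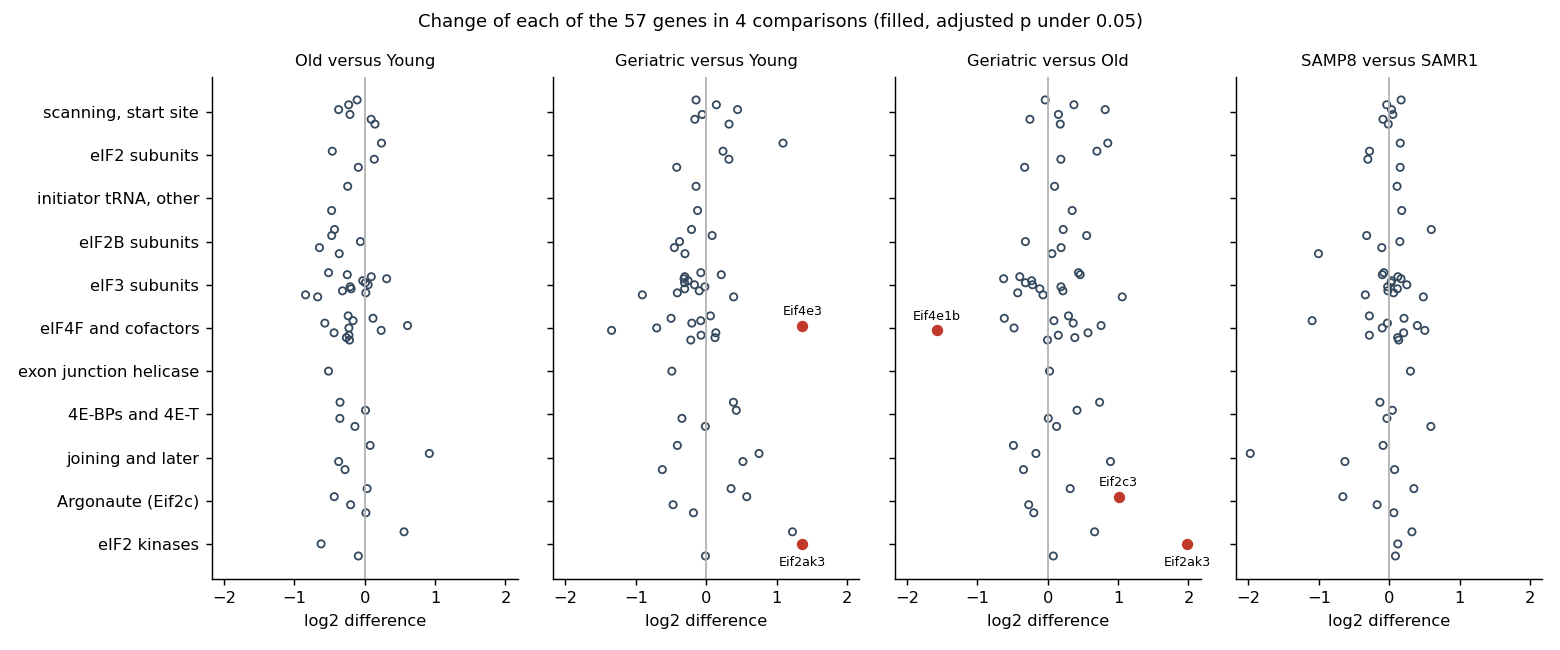
Log2 difference (horizontal axis) of each of the 54 initiation factor genes and 3 eIF2 kinases in 4 comparisons, in rows by role; filled red points passed an adjusted p of 0.05. Filled points are Eif4e3 and Eif2ak3 in Geriatric versus Young and Eif4e1b, Eif2c3 and Eif2ak3 in Geriatric versus Old, and most open points lie left of 0 in Old versus Young.

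The factors of scanning and start site choice made up 6 genes, none of them called in any comparison. Eif1ax, the X-linked gene of eIF1A, which stabilises the scanning complex, had the smallest p of the 6 in Geriatric against Old. Its level was 1.16, 1.31 and 0.62 in Young, 0.37, 0.61 and 0.98 in Old, and 1.41 and 1.53 in Geriatric. The Geriatric arrays were above every Young and Old array, at a difference from Old of 0.82 (SE 0.28, adjusted p = 0.0572). On the SAM arrays it read 0.77, 0.94 and 0.90 in SAMR1 and 0.94, 0.54 and 1.23 in SAMP8, overlapping both. Under 2 of the other scalings Eif1ax passed in this comparison, with an adjusted p of 0.0462 after quantile normalization of processed signals and 0.0376 after median scaling, and it passed without Young 3 (0.0475), Old 3 (0.0351), SAMP8 2 (0.0438) or SAMP8 3 (0.0490). Eif1, which polices start codon recognition, differed by 0.32 (SE 0.20, adjusted p = 0.351) between Geriatric and Young, and Eif5, the GTPase-activating protein of eIF2, by -0.14 (SE 0.21, adjusted p = 0.718).

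The eIF2 complex has α, β and γ subunits, and mice carry 2 genes for γ, Eif2s3x on the X and Eif2s3y on the Y chromosome. None of the 4 genes was called. Eif2s1, the α subunit that the kinases phosphorylate, read 0.17, 0.45 and -0.12 in Young, -0.30, -0.19 and 0.72 in Old, and -0.27 and -0.23 in Geriatric. Both Geriatric arrays were below every Young array, with a difference of -0.42 (SE 0.34, adjusted p = 0.484), and the Old arrays overlapped both groups. The SAM arrays read -0.53, -0.14 and 0.03 in SAMR1 and -0.33, -0.21 and 0.37 in SAMP8. At the second Eif2s1 probe the Young and Geriatric arrays overlapped, with -0.22, -0.14 and -1.25 in Young and -1.01 and -0.36 in Geriatric. Eif2s2, the β subunit, read 0.63, 0.93 and 0.16 in Young, 0.56, 0.52 and 1.06 in Old, and 1.03 and 0.77 in Geriatric, and 0.52, 0.50 and 0.35 in SAMR1 and 0.14, -0.47 and 0.78 in SAMP8. For Eif2s2 the Old arrays overlapped the Young and Geriatric arrays, and SAMP8 spread more widely than SAMR1.

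The Y-linked γ gene, Eif2s3y, did separate the arrays. It read -1.81, -1.63 and -1.13 in Young, -1.15, -0.86 and -1.85 in Old, and -0.23 and -0.64 in Geriatric. The SAM arrays read -0.61, -0.17 and -0.61 in SAMR1 and -0.30, -0.20 and -0.43 in SAMP8, so all 8 Geriatric, SAMR1 and SAMP8 arrays (-0.64 to -0.17) lay above all 6 Young and Old arrays (-1.85 to -0.86). The difference was 1.09 (SE 0.31, adjusted p = 0.0765) between Geriatric and Young and 0.85 (SE 0.31, adjusted p = 0.0742) between Geriatric and Old. The probe was well above background on all 14 arrays, whereas the 3 other Y-linked genes measured (Ddx3y, Uty and Kdm5d) read -7.82 to -7.11 on the Young and Old arrays. Eif2s3y passed under some scalings only: in Geriatric against Young with median scaling (adjusted p = 0.0406) or without Old 3 (0.0423), and in Geriatric against Old with median scaling (0.0170), quantile normalization (0.0459) or normexp (0.0301).

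The X-linked γ gene was measured by 3 probes, which did not move together. Its brightest probe, which crosses an intron (mm9, chrX:91436226-91441634, minus strand), read 3.01, 3.0 and 2.72 in Young, 2.24, 2.48 and 2.63 in Old, and 3.1 and 3.20 in Geriatric. Geriatric was above Old by 0.70 (SE 0.26, adjusted p = 0.0805), and the SAM arrays read 2.80, 3.01 and 2.57 in SAMR1 and 2.68, 2.02 and 2.84 in SAMP8. The Geriatric-Old change at this probe passed after normexp and quantile normalization (adjusted p = 0.0368), with median scaling (0.0449) and without SAMP8 2 (0.0369). The second probe, further downstream on the minus strand (mm9, chrX:91435083-91435142), read 0.95, 1.21 and 0.86 in Young, 1.48, 1.35 and 1.14 in Old, and 0.09 and 0.55 in Geriatric. There the Young and Old arrays were the higher ones, apart from an overlap with SAMP8 2, and the SAM arrays read 0.03, 0.03 and -0.04 in SAMR1 and 0.49, 0.94 and 0.16 in SAMP8. Fitted on its own among 49930 probes, of which 18% passed, that probe fell in Geriatric against Old, with a difference of -1.0 (SE 0.26, adjusted p = 0.0219). The 2 probes of one gene thus had opposite signs in the same comparison. The third probe was well above background on 11 of 14 arrays. The probes are shown because the γ subunit result rests on which one is read, and the first 30 bases are given for the probes that do not cross an intron:
Eif2s3x, intron-crossing probe: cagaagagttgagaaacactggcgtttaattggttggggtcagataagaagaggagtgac
Eif2s3x, downstream probe: gaacaataccaccaataaggggtctctgct
Eif2s3y probe (mm9, chrY:364951-365010, plus strand): ctgtgcaccactgaacttacagtaaagaaa

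**Figure D3:**
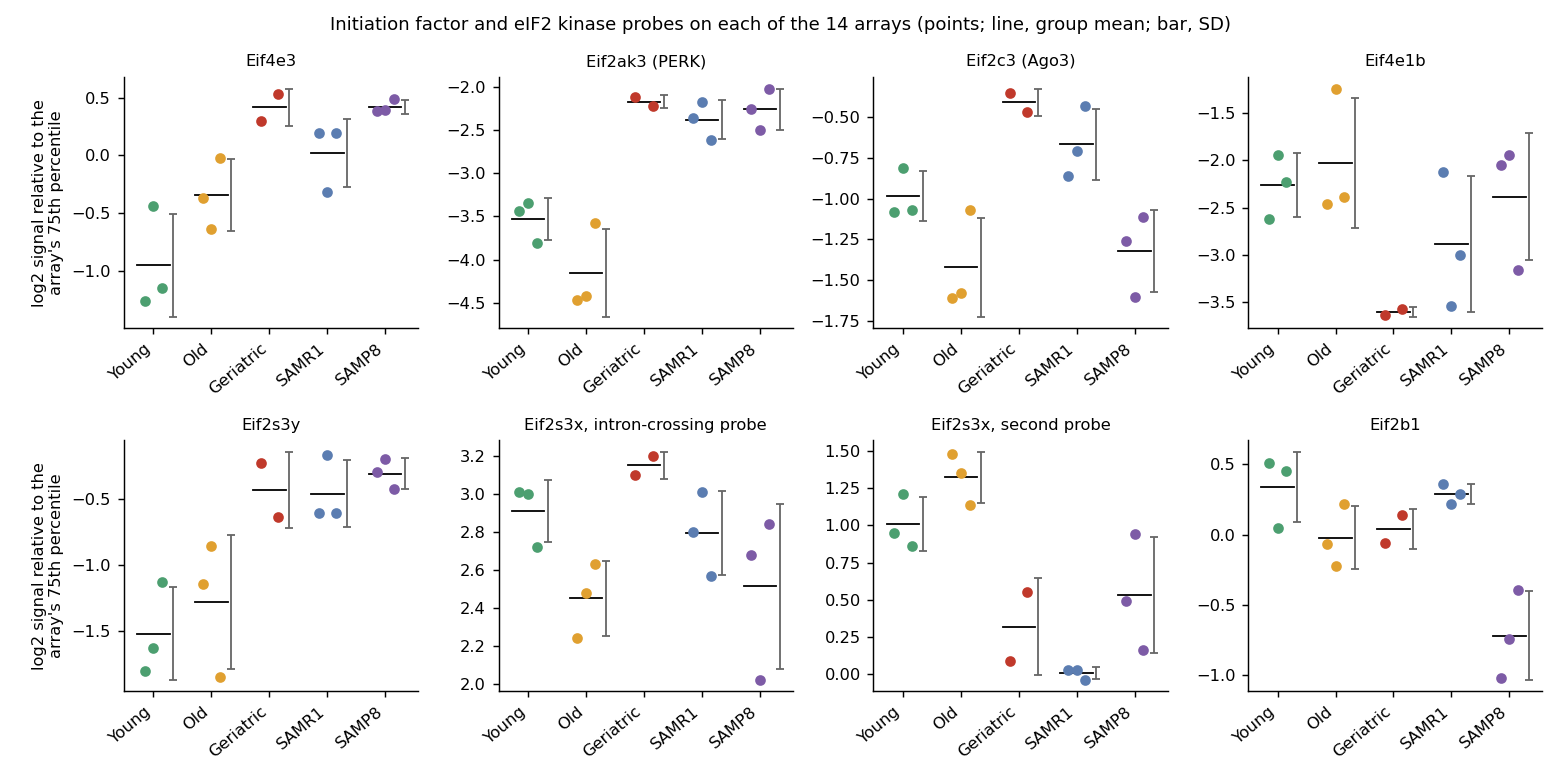
Log2 signal relative to the array's 75th percentile (vertical axes, each to its own scale) of 8 probes on the 14 arrays by group; points are arrays, lines group means and bars SDs. Eif2ak3 and Eif2s3y are higher on the Geriatric, SAMR1 and SAMP8 arrays than on every Young and Old array, Eif4e1b is lowest on the Geriatric arrays, the Eif2s3x probes differ from each other, and Eif2b1 is lower in SAMP8 (-1.02 to -0.39) than in SAMR1 (0.22 to 0.36).

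Of the other factors that handle the initiator tRNA, Eif2a, which can deliver it without eIF2, read 2.99, 3.24 and 3.02 in Young, 2.59, 2.62 and 2.64 in Old, and 3.0 and 2.93 in Geriatric. Every Old array was below every Young and Geriatric array, at a difference from Young of -0.47 (SE 0.17, adjusted p = 0.185). On the SAM arrays it read 2.25, 2.47 and 2.66 in SAMR1 and 2.74, 2.48 and 2.70 in SAMP8. Eif2d, which acts in initiation and ribosome recycling, differed by -0.24 (SE 0.37, adjusted p = 0.811) between Old and Young.

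The 5 eIF2B subunits, which form the exchange factor that eIF2 kinases inhibit, all lay below 0 in Old against Young, with a median of -0.43 and none called. The count was 5 of 5 with median scaling and 4 of 5 after either quantile normalization. Eif2b2 had the smallest p among them and read 0.33, 0.24 and 0.34 in Young, -0.73, -0.27 and -0.01 in Old, and -0.45 and 0.15 in Geriatric. Young was above every Old and Geriatric array, at an Old-Young difference of -0.64 (SE 0.23, adjusted p = 0.178). The catalytic subunit Eif2b5 read 1.28, 1.37 and 0.91 in Young, 0.51, 0.78 and 1.0 in Old, and 0.96 and 1.0 in Geriatric, and 0.56, 0.82 and -0.16 in SAMR1 and 0.63, 1.37 and 1.01 in SAMP8. Its Old-Young difference was -0.43 (SE 0.28, adjusted p = 0.481).

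Eif2b1, the α subunit of eIF2B, had the lowest adjusted p of the 54 genes between SAMP8 and SAMR1. It read 0.36, 0.22 and 0.29 in SAMR1 and -1.02, -0.74 and -0.39 in SAMP8. No SAMP8 array reached a SAMR1 array, and the difference was -1.01 (SE 0.21, adjusted p = 0.0875), which missed the threshold. In the age groups it read 0.51, 0.05 and 0.45 in Young, -0.07, -0.22 and 0.22 in Old, and -0.06 and 0.14 in Geriatric. Eif2b1 passed between the SAM strains after normexp and quantile normalization (-1.14, adjusted p = 0.0207) and without SAMP8 3 (-1.17, adjusted p = 0.0430). All 9 endothelial markers had values below 0 in the same comparison, with a median of -0.61 and none called. Their summed signal on the log2 scale was 5.27 to 6.25 in SAMR1 and 4.16 to 5.96 in SAMP8, with 9 of 9 well above background on each of these arrays, and their part in the Eif2b1 values was not tested.

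Among the eIF2 kinases, Eif2ak3, which encodes PERK, the kinase activated by endoplasmic reticulum stress, was the one called. It read -3.44, -3.34 and -3.81 in Young, -4.47, -4.42 and -3.57 in Old, and -2.12 and -2.22 in Geriatric. Both Geriatric arrays were above every Young and Old array. Against Young the rise was 1.36 (SE 0.29, adjusted p = 0.0252), a 2.57-fold higher signal, and against Old it was 1.98 (SE 0.29, adjusted p = 0.00132), or 3.94-fold. The SAM arrays read -2.36, -2.17 and -2.62 in SAMR1 and -2.26, -2.50 and -2.02 in SAMP8, close to Geriatric, and SAMP8 differed from SAMR1 by 0.12 (SE 0.26, adjusted p = 0.979). The difference between the age and the strain change was 1.24 (SE 0.39, adjusted p = 0.162). The rise against Old passed in 26 of 27 alternative settings, missing with slide 2 alone (adjusted p = 0.0630). The rise against Young passed in 19 of 27, with adjusted p of 0.0943 without Young 3, 0.131 without Geriatric 1, 0.132 without Geriatric 3, 0.0877 after quantile normalization of processed signals, 0.0618 with the slide as a block and 0.530 with slide 2 alone. The PERK probe lies at mm9, chr6:70855152-70855211, plus strand, and is shown because this is the single called kinase; its first 30 bases are:
Eif2ak3: ggtgtacagaacgcacgtaagtgtgataac

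Eif2ak4, which encodes GCN2, the sensor of uncharged tRNA, was near the lower limit of detection. It read -5.18, -5.94 and -7.53 in Young, -5.60, -6.52 and -4.85 in Old, and -5.30 and -4.68 in Geriatric, and -4.24, -4.81 and -4.39 in SAMR1 and -3.83, -4.31 and -4.33 in SAMP8. On no Young array and 1 Old array was it well above background, against both Geriatric and all 6 SAM arrays. Geriatric was at least 1.34-fold higher than Young, taking the lowest well-measured signal as the floor on the Young arrays, with an adjusted p of 0.266. Eif2ak1, which encodes HRI, the kinase activated by heme shortage, read 0.98, 0.87 and 0.69 in Young, 0.83, 0.42 and 1.02 in Old, and 0.78 and 0.88 in Geriatric, and 0.64, 0.72 and 0.15 in SAMR1 and 0.77, 0.43 and 0.58 in SAMP8. Over the 4 comparisons between groups its changes lay between -0.09 (SE 0.22, adjusted p = 0.889) for Old against Young and 0.09 (SE 0.22, adjusted p = 0.981) for SAMP8 against SAMR1.

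Of 19 integrated stress response genes tested, the genes that act around or downstream of phosphorylated eIF2, 1 fell in Old against Young, where 0.24% of all genes did, 1 fell in Geriatric against Young, and 2 rose and 1 fell in Geriatric against Old. The share called was 5.26% in Geriatric against Young, near the 4.19% of all genes, and 15.8% in Geriatric against Old, below the 19.9% of all genes. Atf4, the transcription factor translated when eIF2 is phosphorylated, read 6.72, 6.55 and 6.45 in Young, 6.40, 6.80 and 6.51 in Old, and 5.88 and 5.67 in Geriatric. It fell against Old, with a difference of -0.79 (SE 0.20, adjusted p = 0.0202), while the difference from Young was -0.80 (SE 0.20, adjusted p = 0.0519). On the SAM arrays it read 5.36, 5.50 and 5.30 in SAMR1 and 5.87, 5.81 and 5.50 in SAMP8, again below every Young and Old array. The difference was -0.40 after normexp and quantile normalization, -0.35 after quantile normalization of processed signals, -0.51 with median scaling and -0.31 as the mean of its kept probes. In none of these did it pass (adjusted p = 0.107 to 0.266), nor without Old 2 (0.0667), Geriatric 1 (0.0556) or Geriatric 3 (0.153), nor with slide 2 alone (0.203). Ddit3, which encodes CHOP, a target of ATF4, read 3.47, 3.44 and 3.26 in Young, 2.71, 2.65 and 3.14 in Old, and 2.48 and 2.17 in Geriatric, and fell in Geriatric against Young, with a difference of -1.06 (SE 0.22, adjusted p = 0.0205). Without Young 1 (0.0533), Geriatric 1 (0.0603) or Geriatric 3 (0.181), with median scaling (0.0504) or with slide 2 alone (0.404) it did not pass. Nck1, an adaptor that recruits phosphatase to eIF2α, read -1.24, -1.13 and -0.87 in Young, -2.0, -2.19 and -2.04 in Old, and -0.77 and -0.92 in Geriatric. It fell in Old against Young, with a difference of -1.0 (SE 0.21, adjusted p = 0.0432), and stood higher in Geriatric than in Old by 1.24 (SE 0.23, adjusted p = 0.0049). The Old-Young call passed in 11 of 27 alternative settings and was lost without any one of 12 of the 14 arrays, with adjusted p up to 0.127. The Geriatric-Old call passed in 25 of 26. Vldlr, a lipoprotein receptor gene induced in this response, rose in Geriatric against Old by 1.15 (SE 0.33, adjusted p = 0.0305), but not without Old 1 (0.0802), Old 2 (0.0699), Geriatric 1 (0.0857) or Geriatric 3 (0.173), nor with slide 2 alone (0.18). The list's median was 0.00, -0.20 and -0.32 in these comparisons, against 0.06, -0.18 and -0.22 for all genes.

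eIF3, the large scaffold on the small ribosomal subunit, was represented by 13 genes, none of them called in any comparison. In Geriatric against Young 11 of 13 lay below 0 at a median of -0.26, but 7 of 13 did so after normexp and quantile normalization and 6 of 13 after quantile normalization of processed signals. Eif3b, the RNA-binding core subunit, had the smallest p of all 54 genes in Old against Young. It read 2.39, 1.83 and 1.89 in Young, 0.85, 1.28 and 1.46 in Old, and 1.14 and 1.12 in Geriatric. All Young arrays were above all Old and Geriatric arrays. The difference from Young was -0.84 (SE 0.23, adjusted p = 0.102) for Old and -0.91 (SE 0.26, adjusted p = 0.0772) for Geriatric, both short of the threshold. The SAM arrays read 1.22, 1.28 and 1.53 in SAMR1 and 1.13, 0.68 and 1.21 in SAMP8.

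Some eIF3 genes passed between Geriatric and Old in alternative settings only. Eif3j did so with the slide as a block (-0.80, adjusted p = 0.0215), and Eif3k as the mean of its kept probes (-0.56, adjusted p = 0.0442). Eif3a, the largest subunit, differed by 1.06 (SE 0.40, adjusted p = 0.0838) between Geriatric and Old. It passed without Old 3 (1.43, adjusted p = 0.0202) and after quantile normalization of processed signals (1.72, adjusted p = 0.0380). Eif3k, a peripheral subunit, differed by -0.40 (SE 0.18, adjusted p = 0.143) at its brightest probe. Its intron-crossing probe (mm9, chr7:29765540-29766730, minus strand) read 5.40, 5.22 and 5.18 in Young, 5.41, 5.66 and 5.49 in Old, and 4.67 and 4.73 in Geriatric. On the SAM arrays that probe read 4.65, 4.60 and 4.79 in SAMR1 and 4.69, 4.69 and 4.56 in SAMP8, so the Young and Old arrays were again apart from all the others. Fitted on its own it fell in Geriatric against Old, with a difference of -0.82 (SE 0.18, adjusted p = 0.0115). It is shown as the eIF3 probe that passed:
Eif3k, intron-crossing probe: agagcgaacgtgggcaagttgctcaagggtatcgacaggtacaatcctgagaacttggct

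Among the 11 cap-binding and helicase genes the called changes were those of Eif4e3 and Eif4e1b. At their brightest probes the other genes stayed below the threshold. Eif4a2 passed in Geriatric against Old as the mean of its kept probes (0.68, adjusted p = 0.0238). Eif4e, the cap-binding protein itself, read 0.95, 0.84 and 0.47 in Young, -0.31, 0.61 and 0.65 in Old, and 0.89 and 0.90 in Geriatric, and 0.77, 0.61 and 0.59 in SAMR1 and 1.09, 0.87 and 0.62 in SAMP8. Old 1 was the lowest array, and Geriatric against Old was 0.57 (SE 0.29, adjusted p = 0.179). The scaffold Eif4g1 read 3.21, 3.05 and 2.86 in Young, 2.19, 2.34 and 2.89 in Old, and 2.84 and 2.83 in Geriatric. Its Old-Young difference was -0.57 (SE 0.23, adjusted p = 0.23), with Old 3 inside the Young range, and the SAM arrays read 2.71, 2.78 and 2.77 in SAMR1 and 2.80, 2.37 and 3.02 in SAMP8. The helicase Eif4a1 read 3.38, 3.30 and 3.33 in Young, 2.74, 3.33 and 3.28 in Old, and 3.25 and 2.98 in Geriatric, and 2.71, 2.65 and 2.82 in SAMR1 and 2.65, 2.98 and 2.95 in SAMP8. For it no change between the age groups exceeded 0.22 in size.

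Eif4e3, an eIF4E relative that binds the cap in an atypical way, rose in Geriatric against Young. It read -1.26, -0.44 and -1.15 in Young, -0.37, -0.64 and -0.02 in Old, and 0.30 and 0.53 in Geriatric. Both Geriatric arrays were above all Young and Old arrays, and Geriatric exceeded Young by 1.37 (SE 0.29, adjusted p = 0.0222), a 2.58-fold higher signal. Old was above Young by 0.61 (SE 0.26, adjusted p = 0.256) and Geriatric above Old by 0.76 (SE 0.29, adjusted p = 0.0823). The Geriatric-Old change passed after normexp and quantile normalization (adjusted p = 0.0353), with median scaling (0.0369) and without Young 2 (0.0493). The SAM arrays read 0.19, -0.32 and 0.19 in SAMR1 and 0.38, 0.39 and 0.49 in SAMP8, and 5 of those 6 were above every Young and Old array. The Geriatric-Young change kept its sign in all 27 alternative settings and passed in 19. Its adjusted p was 0.0610 without Young 1, 0.0831 without Young 3, 0.0836 without Geriatric 1, 0.168 without Geriatric 3, 0.0632 with the slide as a block and 0.513 with slide 2 alone.

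Eif4e1b, an eIF4E relative best known from oocytes, fell in Geriatric against Old. It read -2.62, -1.94 and -2.23 in Young, -2.46, -1.24 and -2.39 in Old, and -3.64 and -3.57 in Geriatric. The Geriatric arrays were the 2 lowest of all 14, and the difference from Old was -1.58 (SE 0.50, adjusted p = 0.0462), a 2.99-fold lower signal. The change against Young was -1.35 (SE 0.50, adjusted p = 0.152), and the SAM arrays, which spread widely, read -2.12, -3.54 and -3.0 in SAMR1 and -2.05, -1.94 and -3.16 in SAMP8. This call passed in 7 of 27 alternative settings, with adjusted p from 0.0321 to 0.174, and under none of the other scalings. After normexp and quantile normalization the difference was -0.83. It was lost without any one of Young 1 (0.0553), Young 2 (0.0539), Young 3 (0.0608), Old 1 (0.0604), Old 2 (0.142), Geriatric 1 (0.152), Geriatric 3 (0.173), SAMR1 3 (0.0621) or SAMP8 1 (0.0546), and with the slide as a block (0.0556). Its other probe (mm9, chr13:54888722-54888781) read -4.53, -4.53 and -3.95 in Young, -1.87, -2.15 and -4.27 in Old, and -3.68 and -3.59 in Geriatric, with Old 1 and Old 2 far above Old 3. The probes that carried both calls are shown, by their first 30 bases:
Eif4e3 (mm9, chr6:99575493-99575552, minus strand): tccacttgcattgctaaacaggaagccaaa
Eif4e1b (mm9, chr13:54889760-54889819, plus strand): cacttgatgctgatgatgcttaaggccctt

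Eif4e2, or 4EHP, which competes with eIF4E for the cap, differed by -0.70 (SE 0.23, adjusted p = 0.113) between Geriatric and Young, short of the threshold. A dimmer Eif4e2 probe had the same sign, with a mean of -2.68 in Geriatric against -2.24 in Young. Another dimmer probe had the opposite sign, at -1.9 in Geriatric against -2.43 in Young. Eif4g3, the second canonical eIF4G, differed by -0.62 (SE 0.21, adjusted p = 0.0601) between Geriatric and Old and passed without SAMP8 2 (adjusted p = 0.0469). At the other Eif4g3 probe the sign was opposite, with a mean of 2.88 in Geriatric against 2.73 in Old. Eif4g2, or DAP5, an eIF4G relative that lacks the cap-binding contact, read -0.59, -0.71 and -0.39 in SAMR1 and -1.71, -2.61 and -0.66 in SAMP8. It differed by -1.10 (SE 0.41, adjusted p = 0.468) between the SAM strains, with SAMP8 3 inside the SAMR1 range. The helicase Eif4a2 differed by 0.39 (SE 0.20, adjusted p = 0.191) between Geriatric and Old at its brightest probe, but its exon probe (mm9, chr16:23110158-23110217, plus strand) read 1.78, 1.82 and 1.5 in Young, 0.83, 0.95 and 0.97 in Old, and 1.97 and 1.81 in Geriatric. At that probe every Old array was below every other array of the 14, and Geriatric exceeded Old by 0.97 (SE 0.19, adjusted p = 0.0062). It is shown as the helicase probe that passed:
Eif4a2, exon probe: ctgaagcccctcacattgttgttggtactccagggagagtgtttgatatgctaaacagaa

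Eif4a3, the helicase of the exon junction complex, carries an eIF4A name but marks spliced mRNAs. It read 4.58, 4.47 and 4.29 in Young, 3.86, 3.85 and 4.09 in Old, and 4.0 and 3.91 in Geriatric. All Young arrays were above all Old and Geriatric arrays, with a difference from Young of -0.51 (SE 0.17, adjusted p = 0.163) for Old and -0.49 (SE 0.19, adjusted p = 0.174) for Geriatric. In the SAM strains it read 3.58, 3.67 and 3.76 in SAMR1 and 4.23, 3.85 and 3.83 in SAMP8, with every SAMP8 array above every SAMR1 array and a difference of 0.30 (SE 0.17, adjusted p = 0.729).

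The 4E-BPs restrain eIF4E, and Eif4enif1 (4E-T) carries it to the nucleus and to sites of mRNA storage. None of the 4 genes was called, and all 4 lay above 0 in Geriatric against Old at a median of 0.27, or 3 of 4 after normexp and quantile normalization. Eif4ebp1 read 0.72, 0.41 and 0.49 in Young, 0.17, 0.25 and 0.78 in Old, and 0.35 and 0.70 in Geriatric, and -0.78, 0.01 and 0.54 in SAMR1 and 0.77, 0.50 and 0.28 in SAMP8. SAMR1 1 was the lowest array of the 14. Eif4ebp2 read 2.16, 2.46 and 1.91 in Young, 1.77, 1.65 and 2.05 in Old, and 1.45 and 2.22 in Geriatric, with 1.90, 1.95 and 1.84 in SAMR1 and 1.71, 1.92 and 1.95 in SAMP8. Eif4ebp3 read -0.23, -0.24 and -0.80 in Young, -0.69, -0.21 and -0.33 in Old, and 0.10 and -0.08 in Geriatric, with -0.13, -0.25 and -0.36 in SAMR1 and -0.50, 0.09 and -0.20 in SAMP8. Geriatric was above Old by 0.42 (SE 0.25, adjusted p = 0.256) for Eif4ebp3 and by 0.74 (SE 0.37, adjusted p = 0.177) for Eif4enif1. Eif4enif1 passed in this comparison after quantile normalization of processed signals (1.31, adjusted p = 0.0409).

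mTORC1 is the kinase complex that releases eIF4E from the 4E-BPs, and 27 of 32 listed genes of its pathway were tested. None was called in Old against Young, Geriatric against Young or SAMP8 against SAMR1. In Old against Young 22 of 27 lay below 0, a median of -0.31 against 0.06 for all genes, and 21 to 26 did so under the other scalings. In Geriatric against Old 2 rose and 1 fell (11.1%, where 19.9% of all genes passed), and the median was 0.39 against -0.22. Tsc1, a brake on mTORC1, read -0.26, 0.09 and -0.03 in Young, -0.16, -0.44 and 0.09 in Old, and 0.78 and 0.84 in Geriatric. It rose by 0.98 (SE 0.23, adjusted p = 0.013) against Old, and its difference from Young was 0.87 (SE 0.23, adjusted p = 0.055). Without Geriatric 1 (0.0575) or Geriatric 3 (0.0931), or with slide 2 alone (0.146), the rise did not pass. Sesn2, a leucine-sensing inhibitor of the pathway, read 1.5, 1.09 and 1.16 in Young, 1.01, 1.78 and 1.51 in Old, and 0.25 and 0.08 in Geriatric. It fell against Old, with a difference of -1.27 (SE 0.31, adjusted p = 0.0171), but not without Old 2 (0.0571), Geriatric 1 (0.0606) or Geriatric 3 (0.117), with median scaling (0.0504) or with slide 2 alone (0.129). Rhebl1, a relative of the mTORC1 activator Rheb, rose by 1.43 (SE 0.46, adjusted p = 0.0498), a call that passed in 8 of 26 alternative settings and was lost without any one of 12 of the 14 arrays (adjusted p up to 0.285).

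Of the 4 late-acting genes, Eif5a, a hypusine-bearing factor that helps ribosomes through difficult peptide bonds, read 5.07, 4.55 and 4.73 in Young, 4.40, 4.45 and 4.67 in Old, and 4.09 and 4.24 in Geriatric. Geriatric was below every Young and Old array, with a difference from Young of -0.62 (SE 0.20, adjusted p = 0.115). The SAM arrays read 3.71, 3.90 and 3.96 in SAMR1 and 3.92, 3.82 and 4.06 in SAMP8, lower still. Its relative Eif5a2 read -4.10, -3.73 and -4.11 in Young, -4.42, -3.82 and -4.81 in Old, and -3.45 and -3.47 in Geriatric, with Geriatric against Old at 0.89 (SE 0.36, adjusted p = 0.101). On the SAM arrays Eif5a2 read -3.53, -2.90 and -3.57 in SAMR1 and -3.40, -4.02 and -4.46 in SAMP8. Eif5a2 passed in this comparison after normexp (adjusted p = 0.0417), quantile normalization (0.0131) and median scaling (0.0371).

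Eif6, which keeps the large subunit from joining too early, read 2.91, 2.79 and 2.90 in Young, 3.18, 2.90 and 2.76 in Old, and 2.43 and 2.49 in Geriatric, and 2.98, 2.69 and 2.64 in SAMR1 and 2.41, 2.58 and 3.05 in SAMP8. At this brightest Eif6 probe Geriatric was below every Young and Old array, at -0.49 (SE 0.23, adjusted p = 0.147) against Old. Another Eif6 probe of similar brightness read 2.96, 2.90 and 2.89 in Young, 2.43, 2.47 and 2.57 in Old, and 2.90 and 2.57 in Geriatric. There the sign was opposite, with a mean of 2.74 in Geriatric against 2.49 in Old. At the dimmest Eif6 probe the Geriatric mean was again lower, at -3.75 against -3.18 in Old. Eif5b, the subunit joining GTPase, had the widest spread of the 54 genes. It read -2.84, -3.82 and -2.66 in Young, -1.95, -2.46 and -2.16 in Old, and -2.33 and -2.39 in Geriatric, and -4.11, -2.63 and -4.94 in SAMR1 and -7.79, -7.32 and -2.49 in SAMP8. SAMP8 1 and SAMP8 2 were not well above background while SAMP8 3 lay within the range of the age groups, and SAMP8 against SAMR1 was -1.97 (SE 1.11, adjusted p = 0.72). Without SAMP8 3, where neither remaining SAMP8 array was well above background, SAMR1 was at least 3.78-fold higher than SAMP8, taking the lowest well-measured signal of each SAMP8 array as its floor, and the fit's adjusted p was 0.0200.

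The Argonaute genes, members by their older names, included the other called rise. Eif2c3 (Ago3) read -1.08, -0.81 and -1.07 in Young, -1.61, -1.58 and -1.07 in Old, and -0.35 and -0.47 in Geriatric. Both Geriatric arrays were above every Young and Old array, and the rise against Old was 1.01 (SE 0.24, adjusted p = 0.0143), a 2.01-fold higher signal. It read -0.86, -0.71 and -0.43 in SAMR1 and -1.26, -1.60 and -1.11 in SAMP8, and SAMP8 was below every SAMR1 array at -0.66 (SE 0.21, adjusted p = 0.344). The age change and the strain change had opposite signs, and their difference was 1.23 (SE 0.32, adjusted p = 0.0901). The call against Old was lost without Geriatric 1 (adjusted p = 0.0792), without Geriatric 3 (0.0755) and with slide 2 alone (0.141), and it held in 23 of 27 settings. Eif2c1, Eif2c3 and Eif2c4 are neighbours on chromosome 4, and their brightest probes did not move together in Geriatric against Old, at -0.20 for Eif2c1 and 0.32 for Eif2c4. A second Eif2c1 probe rose by 1.34 (SE 0.35, adjusted p = 0.0243). A second Eif2c4 probe, well above background on 13 of the 14 arrays, was also higher without being called. Its mean was -2.82 in Geriatric against -4.55 in Old. Eif2c2 (Ago2), the Argonaute that can cut its target, was not called in any comparison and lay at -0.47 (SE 0.19, adjusted p = 0.178) in Geriatric against Young. The probe behind the rise is shown by its first 30 bases:
Eif2c3 (mm9, chr4:126032332-126032391, minus strand): gagatacacttttgggtatggccacacagt

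For 6 of the 54 initiation factor genes, or 11.1%, the 6 Young and Old arrays did not overlap with the 8 Geriatric, SAMR1 and SAMP8 arrays, against 9.38% of all genes tested (2.63% higher on the 8 arrays, 6.76% lower). This split was looked at after the values of Eif2ak3 and Eif2s3y had been seen. At their brightest probes Eif2s3y was higher on the 8 arrays, and Eif2c2, Eif3c, Eif3h, Eif4g3 and Eif5a were lower. The split did not hold at the other probe of Eif2c2, Eif3c, Eif3h and Eif4g3, where the 6 and the 8 arrays overlapped. For Eif3c that probe ranged from 3.1 to 3.8 on the 6 arrays and from 3.05 to 3.47 on the 8. Eif3c, a core eIF3 subunit, ranged from 4.67 to 5.13 on the 6 arrays and from 4.39 to 4.58 on the 8. Eif3h, which modulates re-initiation, ranged from 5.73 to 5.85 against 5.36 to 5.59. Eif4g3 ranged from 3.75 to 4.14 against 2.77 to 3.54. Among the kinases Eif2ak3 was split in the same way, with -4.47 to -3.34 on the 6 arrays and -2.62 to -2.02 on the 8. The other translation lists had 27, 14, 19 and 15 genes tested, and 9.38% of all genes were split. From these lists Atf4 (6.4 to 6.8 against 5.30 to 5.88), Tsc1, Pabpc1, Rheb, Rps6, Pabpc4, Slc3a2 and Eef1e1 were split as well. So were Myf5 and Spry1 among 14 satellite cell markers. Of 9 endothelial markers Cdh5 was split (-5.71 to -4.51 against -4.07 to 0.47), and of 8 muscle fibre markers Acta1 (1.43 to 2.98 against 0.15 to 1.22). None of the 10 leukocyte and 7 mesenchymal markers was split. The median of the endothelial markers overlapped, at -2.63 and -0.38 in Geriatric, -3.0 to -0.98 in Young and -1.68 to -0.34 in Old. The division between the 6 and the 8 arrays also holds for Xist, Ddx3y, Uty and Kdm5d. The part of these transcripts and markers in the members' differences was not tested. Both slides carried arrays of both sides.

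**Figure D4:**
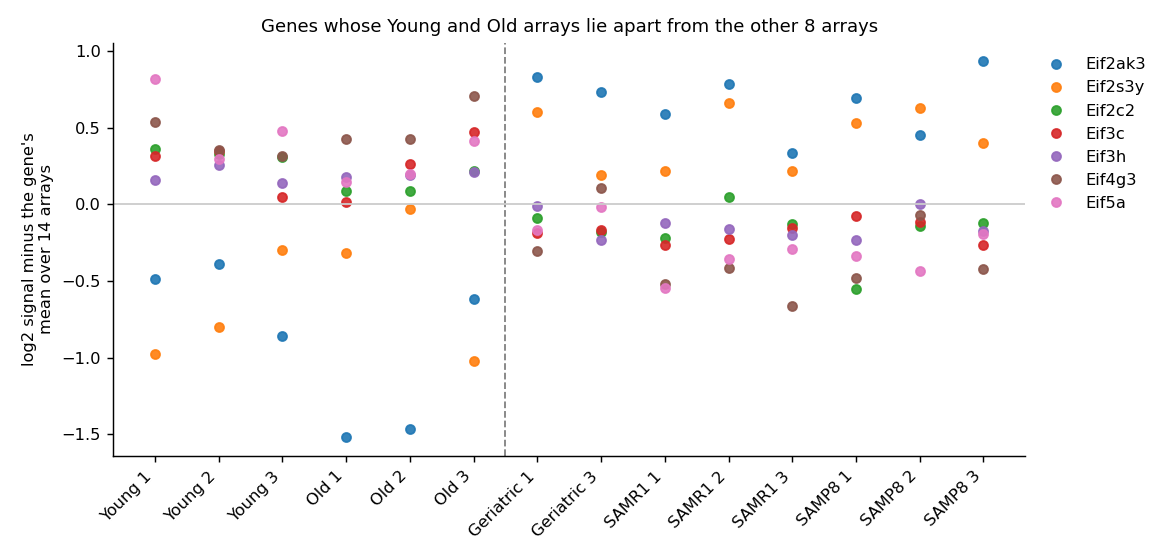
Log2 signal minus the gene's mean over the 14 arrays (vertical axis), at the brightest probe of 7 genes. At these probes the Young and Old arrays (left of the dashed line) do not overlap with the Geriatric, SAMR1 and SAMP8 arrays (right). Each point is 1 gene on 1 array; Eif2ak3 and Eif2s3y are lower on the left and Eif2c2, Eif3c, Eif3h, Eif4g3 and Eif5a higher.

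A total of 22 initiation factor genes had several probes, and probes of one gene often disagreed. Their probes differed in sign for 11 of the 22 genes in Old against Young, 8 in Geriatric against Young, 12 in Geriatric against Old and 10 in SAMP8 against SAMR1. When every kept probe was fitted on its own, 6 of the 82 initiation factor probes passed in Geriatric against Old, 4 higher and 2 lower, against 18% of all probes. The higher ones were probes of Eif4a2, Eif2c3, Eif2c1 and Eif1ad, and the lower ones probes of Eif3k and Eif2s3x. Eif1ad, a nuclear protein with an eIF1A-like domain, read -0.31, -0.02 and -0.42 in Young, -1.26, -1.91 and -1.06 in Old, and -0.37 and -0.28 in Geriatric at that probe. Old lay below both other age groups there, at 1.08 (SE 0.32, adjusted p = 0.0367) for Geriatric against Old.

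Of 14 genes for MNK kinases, poly(A)-binding proteins and cofactors, 1 was called, Pabpc1, which encodes the main cytoplasmic poly(A)-binding protein that closes the mRNA loop with eIF4G. Pabpc1 read 4.75, 4.47 and 4.24 in Young, 4.25, 4.68 and 4.72 in Old, and 3.72 and 3.77 in Geriatric. It fell in Geriatric against Old, with a difference of -0.80 (SE 0.22, adjusted p = 0.0291), and the SAM arrays read 3.43, 3.63 and 3.80 in SAMR1 and 3.60, 3.73 and 3.49 in SAMP8. The fall did not pass after quantile normalization of processed signals (0.0644) or median scaling (0.191), without Old 2 (0.084), Old 3 (0.0603), Geriatric 1 (0.116) or Geriatric 3 (0.13), or with slide 2 alone (0.186). In that comparison 7.14% of the list passed, where 19.9% of all genes did and 14.4% passed as lower. The list's median there was 0.14, against -0.22 for all genes. None of 15 elongation and release genes was called. In Old against Young 14 of the 15 lay below 0 at a median of -0.25 (14 or 15 under the other scalings), with Eef2k, the kinase that inactivates elongation factor 2, at -0.94 (SE 0.31, adjusted p = 0.155).

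All 14 satellite cell markers were well above background on every array. In Geriatric against Old 3 satellite cell markers rose (Myf5, Spry1 and Heyl) while 2 of 10 leukocyte markers, 1 of 7 mesenchymal markers and 2 of 8 muscle fibre markers fell, where 5.52% of all genes rose and 14.4% fell. Of the fallen markers C1qb passed in 12 of 26 alternative settings, Lyz2 in 18, Myh2 in 10, Mylpf in 20 and Thy1 in 23. On the log2 scale the summed leukocyte markers were 7.47 and 7.53 in Geriatric and 7.95 to 8.63 in Old, and 8 of 10 against 9 or 10 of 10 were well above background. That sum was mostly Itgam, the gene of CD11b, at 7.42 and 7.48 in Geriatric, 7.89 to 8.59 in Old and 8.03 to 8.51 in Young. The median over the 10 leukocyte markers overlapped between the groups, at -2.76 and -2.12 in Geriatric, -2.51 to -1.59 in Old and -2.42 to -2.15 in Young. The summed mesenchymal markers were 5.48 and 6.21 in Geriatric, 5.68 to 6.32 in Old and 6.05 to 6.16 in Young. The summed muscle fibre markers were 2.43 and 2.52 in Geriatric, 2.49 to 3.55 in Old and 2.49 to 2.98 in Young. Their part in the changes of Eif2ak3, Eif4e3, Eif2c3 and Eif4e1b was not tested, and fewer cells of a type and less RNA per cell cannot be told apart in these samples.

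Many mRNAs of the translation machinery begin with a run of pyrimidines, the TOP motif, through which mTORC1 controls their translation. RefSeq start sites (GRCm38.p6) were found for 42 of the 54 genes. A run of at least 8 bases that are all C or T, on the mRNA strand and within 20 bases of either side of the start, was present for 9 of the 42 genes (21.4%), against 18.4% of the 27025 genes in the table. The 9 were Eif2b2, Eif2b5, Eif2s3x, Eif2s3y, Eif3f, Eif3l, Eif3m, Eif4e and Eif4enif1. In Old against Young 8 of these 9 lay below 0 at a median of -0.43, and 23 of the 33 without a run did so at a median of -0.23. In Geriatric against Young the order was the opposite, with 4 of the 9 below 0 at a median of 0.14 and 21 of the 33 without a run below 0 at a median of -0.14. Windows from 60 bases before to 20 after the start are shown for both γ subunit genes, whose levels differed between arrays, for Eif3f as a subunit with a long run, and for Eif2ak3, which has none. The run is in capitals:
Eif2s3x (chrX:94212632-94212711, minus strand): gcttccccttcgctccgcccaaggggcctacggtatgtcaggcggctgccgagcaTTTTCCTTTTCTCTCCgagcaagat
Eif2s3y (chrY:1010535-1010614, plus strand): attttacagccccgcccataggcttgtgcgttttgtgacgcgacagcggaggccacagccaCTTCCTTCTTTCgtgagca
Eif3f (chr7:108934355-108934434, plus strand): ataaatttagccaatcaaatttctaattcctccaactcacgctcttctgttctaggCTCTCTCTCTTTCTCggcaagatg
Eif2ak3 (chr6:70844455-70844534, plus strand): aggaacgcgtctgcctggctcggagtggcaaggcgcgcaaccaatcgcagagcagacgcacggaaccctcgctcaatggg
Both γ subunit genes carry such a run at the start, of 16 bases in Eif2s3x and 12 in Eif2s3y, and 25 of the 80 bases (31.2%) are identical at the same distance from the start.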

How the data were processed

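The deposited scanner files hold processed intensity values per spot, made with Agilent Feature Extraction 10.7.3.1 (genome build mm9) per the submitters' processing notes. Outlier spots were left out, log2 values of the spots of a probe were averaged, and each array was centred on its 75th percentile. Of 55681 probes, the 49930 that the scanner software scored well above background on 2 or more arrays of some group were kept, and a gene took its kept probe with the highest mean (32873 genes). One limma 3.58.1 model (R 4.3.3) with a coefficient per group was fitted over the 14 arrays, and p-values were adjusted over all genes tested. The code was tested on simulated data. The authors' deposited log2 values equal a normexp (offset 50) and quantile normalization of the same arrays within 1.17e-04 and served as an alternative. The others were other scalings, filters and probe rules, the slide (2 slides, 6 and 8 arrays, from the array barcodes) or the replicate number as a block, each slide alone, the compared groups alone, and each array left out. The number of arrays limits the precision. Replicate numbers do not pair the samples: within the 4 comparisons, residuals of same-numbered samples correlated at -0.25 to 0.16.

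The members and gene lists were chosen with earlier results of these data known. Per-array values are given for genes that passed, for the 3 genes with the smallest p per comparison, and for a fixed set of core factors and the kinases. From other lists, genes that passed or had the smallest p are named. The probe and promoter sequences come from the scanner files and from RefSeq (GRCm38.p6).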

Additional observations from a re-analysis of the deposited data

How the results depend on the processing

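In Old against Young no initiation factor gene passed in any of the settings run, every array left out in turn included. In Geriatric against Young the count of 1 became 2 with median scaling and 0 with the slide as a block, slide 2 alone or only the 2 groups compared, and it ranged from 0 to 2 with single arrays left out. In Geriatric against Old the count of 2 became 5 after normexp and quantile normalization and with the authors' deposited values. It became 6 after quantile normalization of processed signals and with median scaling. With every probe fitted on its own 6 of the 82 probes passed, where 18% of all probes did. The gene count became 1 without a detection filter, and 0 with slide 2 alone or only the 2 groups compared. It ranged from 0 to 5 with single arrays left out. In SAMP8 against SAMR1 the count of 0 became 1 after normexp and quantile normalization and with the authors' deposited values, and ranged from 0 to 2 with single arrays left out. For the difference between the Geriatric-Young and SAMP8-SAMR1 changes, 0 to 1 genes passed with single arrays left out. With the replicate number as a block, the count was 0 in Geriatric against Young and 1 in Geriatric against Old. Apart from the probe fit, the share of all genes that passed in each setting is not given here. The counts are therefore not read as results about the members. Median scaling moved the median of all genes from 0.06 to -0.15 in Old against Young and from -0.22 to 0.06 in Geriatric against Old. The cause of these moves was not tested, apart from the fewer arrays in the settings that leave arrays out.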
